A study of Mus musculus with 20 samples.

Results

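T cell and immune checkpoint genes were examined in tumors and normal kidneys of a mouse model of clear cell kidney cancer. The 10 genes were Cd3d, Cd3e, Cd3g, Cd4, Cd8a, Pdcd1, Cd274, Ctla4, Foxp3 and Tigit. They were picked by name, as T cell receptor, coreceptor and checkpoint genes, from the 54532 genes of the count table, and all 10 were found there. RNA sequencing had been run on 10 tumors and on normal regions of the kidneys of the same 10 mice. The mice had the genotype LSL-Cas9/+; Pax8 Cre/+ on a C57BL/6 background, so that Cas9 was made where the Pax8 promoter is active, which includes renal tubule cells. Their kidneys had been injected with adeno-associated virus (AAV) that carried sgRNAs against Vhl, Pbrm1, Keap1 and Tsc1 and no Cre. Genotype and injection were thus shared by both groups, and the normal tissue came from injected animals. Each tumor came from a different mouse. Mice of both sexes were injected as young adults, and their ages at tissue collection were not given in the sources used here. The study also gave antibodies against PD-1 and CTLA4 to mice of this model, and the levels of these genes bear on which checkpoint targets the tumors contain.

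A T cell recognizes its antigen through a receptor whose antigen-binding chains signal by way of the CD3 chains, helped by the coreceptor CD4 on helper T cells or CD8 on cytotoxic T cells. Activated T cells put inhibitory receptors such as PD-1, CTLA4 and TIGIT on their surface, which are called checkpoints because they restrain the response. PD-L1, the ligand of PD-1, is made by tumor cells, macrophages and many other cells, so that its RNA, unlike that of the CD3 chains, is not a sign of T cells.

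The CD3 chains are encoded side by side. In the mouse genome build GRCm38 (mm10), Cd3g, Cd3d and Cd3e occupied 40056 bases of chromosome 9, from 44969572 to 45009627. Cd3g on the minus strand and Cd3d on the plus strand were transcribed away from each other, with starts 1355 bases apart. Of the other genes, Cd4 (chromosome 6, 124864692 to 124888221, minus strand) and Cd8a (chromosome 6, 71373427 to 71379173, plus strand) encode the coreceptors. The checkpoint receptor genes were Pdcd1 (chromosome 1, 94038305 to 94052553, minus strand), Ctla4 (chromosome 1, 60887000 to 60915832, plus strand) and Tigit (chromosome 16, 43648867 to 43664146, minus strand). Cd274 lay on chromosome 19 from 29367455 to 29388095 on the plus strand, and Foxp3 on chromosome X from 7579676 to 7595243 on the plus strand. RefSeq promoter entries (GRCm38.p6) matched 9 of the 10 genes, all but Cd4. The 250 bases before the start are shown for the neighbouring CD3 genes, of which Cd3e and Cd3g fell in tumors, and for Cd274, which rose. Each is written 5′ to 3′ on the gene's own strand, with the motif matches described after them in capitals.
Cd3d: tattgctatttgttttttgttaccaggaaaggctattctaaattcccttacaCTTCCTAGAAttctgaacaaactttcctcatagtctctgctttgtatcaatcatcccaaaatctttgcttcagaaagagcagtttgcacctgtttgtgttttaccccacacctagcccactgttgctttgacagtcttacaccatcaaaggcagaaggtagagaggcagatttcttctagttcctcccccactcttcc
Cd3e: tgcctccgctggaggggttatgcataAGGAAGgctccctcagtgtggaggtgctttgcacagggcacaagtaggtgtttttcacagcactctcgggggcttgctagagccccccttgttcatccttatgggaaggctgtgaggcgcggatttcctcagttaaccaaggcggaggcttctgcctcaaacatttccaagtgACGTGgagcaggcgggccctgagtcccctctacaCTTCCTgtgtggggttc
Cd3g: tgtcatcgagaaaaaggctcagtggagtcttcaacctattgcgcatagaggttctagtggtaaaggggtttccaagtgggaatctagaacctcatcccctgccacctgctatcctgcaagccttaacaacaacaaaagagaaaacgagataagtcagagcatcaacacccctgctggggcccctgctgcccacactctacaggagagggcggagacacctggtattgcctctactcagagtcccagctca
Cd274: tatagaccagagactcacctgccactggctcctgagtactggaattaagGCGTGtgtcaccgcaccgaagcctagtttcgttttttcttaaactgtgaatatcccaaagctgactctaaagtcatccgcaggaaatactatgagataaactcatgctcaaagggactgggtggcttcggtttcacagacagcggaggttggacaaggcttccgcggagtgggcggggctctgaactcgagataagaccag

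These windows are chr9:44981536-44981785 for Cd3d, chr9:45009612-45009861 (minus strand) for Cd3e, chr9:44980432-44980681 (minus strand) for Cd3g and chr19:29367188-29367437 for Cd274. Their GC content was 41.2%, 57.2%, 51.6% and 50.4%. Both strands were searched for the core of the hypoxia response element (ACGTG or GCGTG), the interferon-gamma activated GAS element (TTCNNNGAA), an ISRE-like run (GAAA, any 2 bases, then GAAA), a RUNX motif (TGTGGT) and an ETS motif (AGGAAG). The Cd3d window held 1 ETS match that overlaps 1 GAS match, and the Cd3e window held 2 ETS matches and 1 hypoxia core. The Cd3g window held none of the 5 motifs. The Cd274 window held 1 hypoxia core and no GAS or ISRE-like match. Among 32851 mouse promoters searched in the same way, 38.6% held the hypoxia core, 29.5% the ETS motif, 14.0% the RUNX motif, 7.02% the GAS element and 2.98% the ISRE-like run, so that single matches of the first kinds are common.

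A library held between 14737516 and 26679704 counts in all if it came from a normal kidney and between 18447394 and 24902973 if it came from a tumor. The 10 genes together took between 5.70 and 21.7 CPM (counts scaled to a fixed library total). At these depths 3 counts, the most that a count of 0 allows, correspond to between 0.11 and 0.189 CPM. The scaling factor (TMM) of normal kidney 9 was 0.749 where those of its group otherwise lay between 1.03 and 1.14, and tumor 7 stood apart in leukocyte genes as described further on. Of the genes the sgRNAs targeted, Vhl (log2 fold change -0.49, adjusted p = 0.00179) and Tsc1 (-0.61, adjusted p = 0.00871) were lower in tumors, Keap1 was higher (0.83, adjusted p = 1.3e-07) and Pbrm1 did not pass the test (-0.28, adjusted p = 0.23). Whole-gene counts do not show whether a transcript was edited. Counts carry no molecular identifiers, so limits from counts cover counting error only.

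RNA of the CD3 chains was scarce in both tissues. Cd3e, Cd3g and Cd8a RNA was lower in tumors and Cd274 RNA higher, and of these calls those of Cd3e and Cd274 held under every alternative tried. Cd3e, Cd3g and Cd8a were 2.55 to 4.06 times lower in tumors, and Cd274 was 1.88 times higher. Cd3d, Cd4, Foxp3, Tigit, Ctla4 and Pdcd1 had lower estimates in tumors that did not pass the test. The test was the quasi-likelihood test of edgeR, its p-values were adjusted over all genes by the Benjamini-Hochberg method, and the threshold was an adjusted p of 0.05. A filter for low counts with a minimum of 10 left 15354 genes and only 3 members, namely Cd4, Cd8a and Cd274. The other 7 members were tested in a fit of all 32383 genes with at least 1 count, and their values come from that fit. Among the 3 that passed the filter 1 was called higher and 1 lower, where 47.5% of all filtered genes were called, 23.6% higher and 23.8% lower. Of the 7 others, 2 were called lower and 0 higher (edgeR, with 0 of the 7 higher and 2 lower also at an unadjusted p under 0.05), where 28% of all genes in that fit were called, 15.2% lower and 12.8% higher. None of the 10 passed the limits used in the study, a log2 fold change over 1 with an unadjusted p under 0.001, which 19.1% of the filtered genes (8.85% higher, 10.2% lower) and 12.4% of the unfiltered genes (5.19% higher, 7.2% lower) passed. In bulk tissue, fewer cells of a type and less RNA per cell cannot be told apart.

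**Figure D1:**
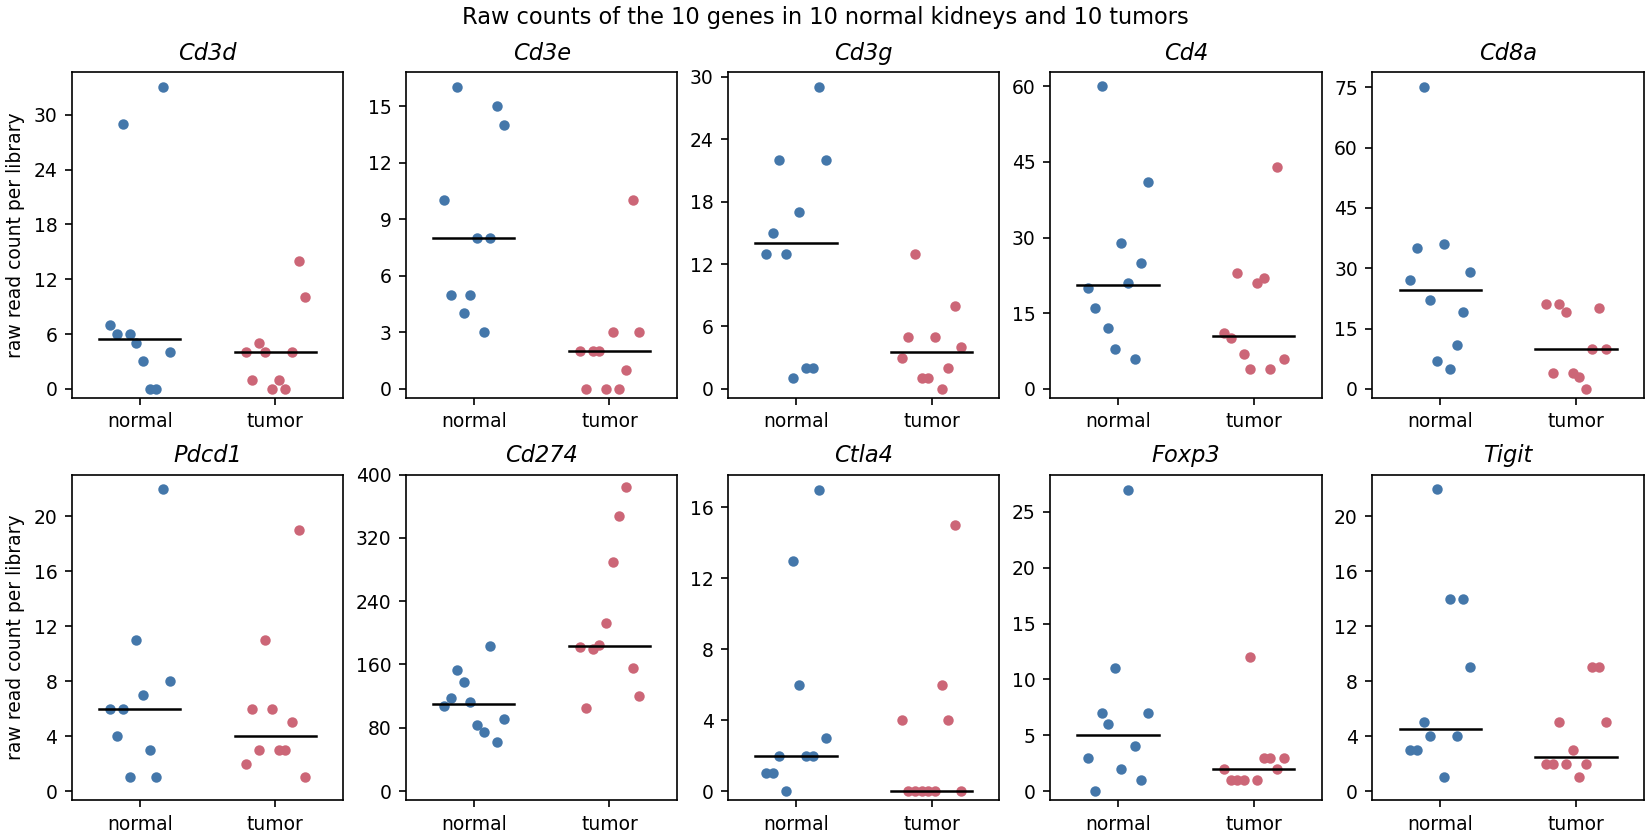
Raw read counts of the 10 genes, with 1 point per library (10 normal kidneys in blue, 10 tumors in red), a black line at the median of each group and a linear axis of its own in each panel. Points are spread sideways only to separate them. Cd274 reaches 384 counts, Cd4 and Cd8a reach 60 and 75 counts in normal kidneys, and the other genes stay at or below 33 counts in every library.

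Cd3e encodes the epsilon chain, which pairs with the delta and gamma chains in the receptor complex. Its raw counts ran from 3 to 16 (median 8) in normal kidneys and from 0 to 10 (median 2) in tumors. In 3 tumors no read fell on Cd3e, and 9 of 10 tumors had at most 3 counts, against 1 of 10 normal kidneys. All 10 tumors lay below the median of the normal kidneys, and 6 of them below every normal kidney in CPM. Of the 4 tumors that overlapped with normal kidneys, tumor 9 (10 counts) reached furthest into their range. In CPM, from here on scaled by the TMM factors, the level was 0.472 ± 0.278 (SD, n = 10) in normal kidneys and 0.106 ± 0.121 (SD, n = 10) in tumors. Cd3e fell by 2.02 on the log2 scale (SE 0.568, adjusted p = 0.00899). The call held under every alternative tried, with a log2 fold change between -2.58 and -1.71.

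Cd3g, the gamma chain, had 1 to 29 raw counts (median 14) in normal kidneys and 0 to 13 (median 3.5) in tumors. All 10 tumors were again below the normal median, but normal kidneys 5, 7 and 8 had only 1 or 2 counts, so that the groups overlapped over most of the tumor range. Its level was 0.748 ± 0.567 CPM (SD, n = 10) in normal kidneys and 0.211 ± 0.199 CPM (SD, n = 10) in tumors, and it fell by 1.77 on the log2 scale (SE 0.614, adjusted p = 0.0333). The call was lost in the fits without normal kidney 3, 6, 9 or 10 or without tumor 1, 4, 5, 8 or 10 (adjusted p between 0.0123 and 0.0663 over all 20 such fits), with limma-voom (-1.54, adjusted p = 0.0998), and without tumor 7 and normal kidney 9 (-1.38, adjusted p = 0.0729). Cd3d, the delta chain, had 0 to 33 raw counts (median 5.5) in normal kidneys and 0 to 14 (median 4) in tumors. Normal kidneys 3 and 9, with 29 and 33 counts, stood above the other 8, which had at most 7, and the groups overlapped fully below them. Cd3d had a log2 fold change of -1.28 (SE 0.747, adjusted p = 0.204) and did not pass the test, and without tumor 7 and normal kidney 9 the estimate was -0.57. An antisense gene and another gene model overlap Cd3e, but they held 3 and 2 counts in all 20 libraries.

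Cd8a encodes the coreceptor of cytotoxic T cells. Raw counts ran from 5 to 75 (median 24.5) in normal kidneys and from 0 to 21 (median 10) in tumors. All 10 tumors were below the normal median, with tumor 7 at 0. Normal kidneys 5, 7, 8 and 9 (7, 5, 11 and 19 counts) lay within the tumor range of raw counts. In CPM, normal kidney 4 (1.02) also lay within the tumor range, and normal kidney 9 (1.19) just above its maximum (1.18). The level was 1.42 ± 1.04 CPM (SD, n = 10) in normal kidneys and 0.551 ± 0.411 CPM (SD, n = 10) in tumors. Cd8a fell by 1.35 on the log2 scale (SE 0.54, adjusted p = 0.045), close to the threshold. The call was lost without normal kidney 1, 2, 3, 6 or 10 or without tumor 2, 5, 6, 8 or 10, furthest without normal kidney 3, whose 75 counts are the highest (-1.06, adjusted p = 0.111), and also with limma-voom (-1.45, adjusted p = 0.0736) and in the fit without the filter (-1.33, adjusted p = 0.0693). Cd8b1, the gene of the other CD8 chain, had 95 counts over normal kidneys and 68 over tumors. It did not pass edgeR's test in the fit without the filter (-0.58, adjusted p = 0.49).

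Cd4, the coreceptor of helper and regulatory T cells, had 6 to 60 raw counts (median 20.5) in normal kidneys and 4 to 44 (median 10.5) in tumors. In CPM, tumor 9 (44 counts) lay above 8 of the 10 normal kidneys, and 3 tumors lay below all of them. Cd4 had levels of 1.24 ± 0.845 CPM (SD, n = 10) and 0.726 ± 0.53 CPM (SD, n = 10), and its log2 fold change of -0.76 (SE 0.447, adjusted p = 0.169) did not pass the test. The approximate 95% interval of that change ran from -1.64 to 0.12. Some macrophages and dendritic cells also make CD4, so that its reads need not come from T cells.

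The ratio of Cd8a to Cd4 counts, which does not depend on the scaling of the libraries, was 1.12 over the pooled counts of the normal kidneys (266 and 238) and 0.737 over those of the tumors (112 and 152). Per library the log2 ratio, with 0.5 added to each count, was 0.08 ± 0.9 (SD, n = 10) in normal kidneys and -0.64 ± 2.12 (SD, n = 10) in tumors. Cd8a counts exceeded Cd4 counts in 6 normal kidneys and in 4 tumors, and the difference of -0.72 did not pass a two-sided permutation test (p = 0.363, 0.454 after adjustment over the 5 ratios tested).

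**Figure D2:**
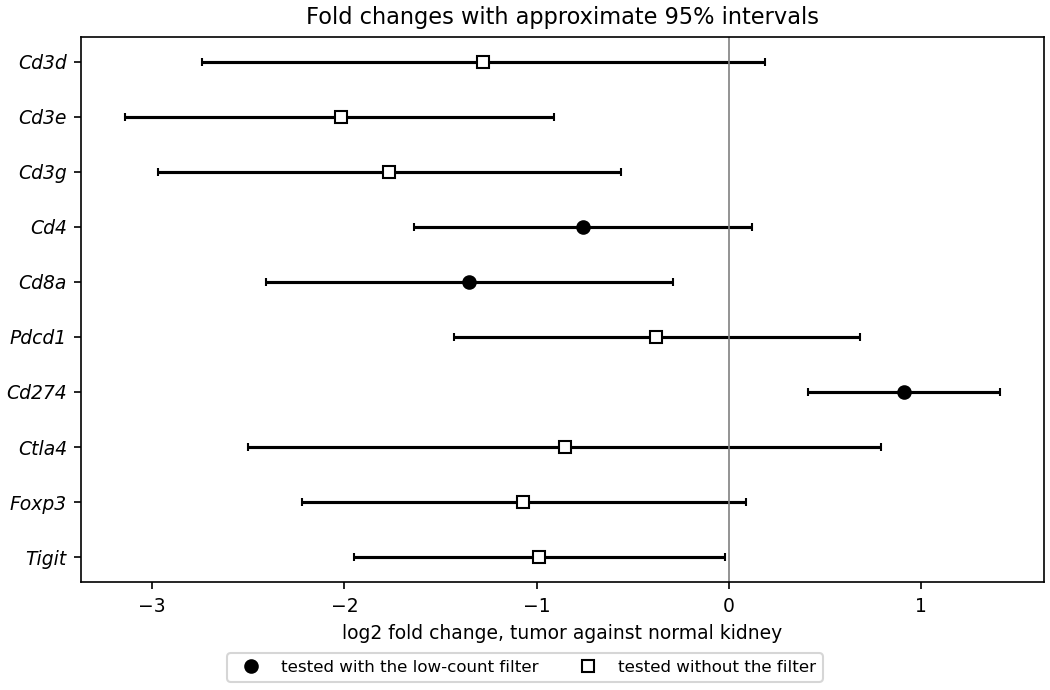
Log2 fold change of each gene, tumor against normal kidney, with approximate 95% intervals as bars. Filled circles mark the 3 genes tested after the low-count filter and open squares the 7 tested without it. The interval of Cd274 (0.41 to 1.41) lies above 0 and those of Cd3e, Cd3g and Cd8a lie below 0, whereas those of Cd3d, Cd4, Pdcd1, Ctla4 and Foxp3 contain 0 and that of Tigit ends at -0.02.

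Pdcd1 encodes PD-1. Raw counts ran from 1 to 22 (median 6) in normal kidneys and from 1 to 19 (median 4) in tumors, with the highest count of each group in the library numbered 9. The groups overlapped over nearly their whole range. Its log2 fold change was -0.38 (SE 0.538, adjusted p = 0.623), with an approximate 95% interval from -1.43 to 0.68, and the estimate turned to 0.09 without normal kidney 9. The counts do not tell apart changes within that interval.

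Ctla4, a receptor that competes with CD28 for the ligands CD80 and CD86, had 0 to 17 raw counts (median 2) in normal kidneys and 0 to 15 (median 0) in tumors. No read fell on it in 6 tumors and 1 normal kidney, which allows up to 3 counts in each of these libraries. In tumors, 15 of the 29 Ctla4 counts came from tumor 9, and in normal kidneys 30 of the 47 came from normal kidneys 5 and 9. The log2 fold change of -0.85 (SE 0.838, adjusted p = 0.447) did not pass the test and ranged from -1.61 to -0.29 when 1 library was left out. A processed pseudogene, Rpl18-ps1, lies inside Ctla4 on the same strand and had 93 counts over the 20 libraries, at most 14 in a library.

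Tigit, which binds the poliovirus receptor family on other cells, had 1 to 22 raw counts (median 4.5) in normal kidneys and 1 to 9 (median 2.5) in tumors. Every library had at least 1 count, the 3 highest counts (22, 14 and 14) were in normal kidneys, and the remaining range was shared. The levels were 0.398 ± 0.342 CPM (SD, n = 10) and 0.196 ± 0.143 CPM (SD, n = 10). Tigit had a log2 fold change of -0.99 (SE 0.494, unadjusted p = 0.0578, adjusted p = 0.141), which did not pass the test.

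Cd274, which encodes PD-L1, was the only member with more than 100 counts in any library. Raw counts ran from 62 to 183 (median 109.5) in normal kidneys and from 105 to 384 (median 183.5) in tumors. In CPM, 6 tumors lay above every normal kidney and 4 normal kidneys below every tumor, and 9 tumors lay above the normal median. The level was 5.77 ± 1.82 CPM (SD, n = 10) in normal kidneys and 10.8 ± 5.09 CPM (SD, n = 10) in tumors, with the highest values in tumor 8 (21.2 CPM), tumor 6 (15.5 CPM) and tumor 7 (14.9 CPM). Cd274 rose by 0.91 on the log2 scale (SE 0.255, adjusted p = 0.00581), with an approximate 95% interval from 0.41 to 1.41. It stayed past the threshold under every alternative tried, with values between 0.74 and 1.00.

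Foxp3 encodes the transcription factor that defines regulatory T cells. Raw counts ran from 0 to 27 (median 5) in normal kidneys and from 1 to 12 (median 2) in tumors. Normal kidney 7, with 27 counts, and tumor 5, with 12 counts, stood above the rest of their groups, and 9 of 10 tumors had at most 3 counts. Foxp3 had a log2 fold change of -1.07 (SE 0.589, adjusted p = 0.188), which did not pass the test, and without tumor 5 it was -1.70 (adjusted p = 0.0262). Relative to Cd4, the pooled Foxp3 counts were 0.286 in normal kidneys and 0.191 in tumors, and the difference of the log2 ratio per library was -0.04 (two-sided permutation test, p = 0.965, adjusted p = 0.965). Foxp3 overlaps Flicr, Gm36995 and Ccdc22, of which Flicr had 88 counts over all libraries, Gm36995 49 and Ccdc22 0. Whether the counting used strand was not given in the sources used here, so reads of such neighbours may be shared.

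To compare levels between genes, CPM were divided by the gene length in kilobases given with the counts. In normal kidneys the order was Cd274 (1.59 ± 0.504 CPM per kilobase, SD, n = 10), Tigit (0.433 ± 0.373), Cd8a (0.39 ± 0.286), Cd4 (0.308 ± 0.21), Cd3d (0.285 ± 0.375), Cd3g (0.229 ± 0.173), Pdcd1 (0.198 ± 0.201), Cd3e (0.116 ± 0.0682), Ctla4 (0.112 ± 0.147) and Foxp3 (0.0767 ± 0.0722). Only Cd274 was separated from its neighbour by more than the spread, and all other neighbours differed by less than the larger of their SDs. In tumors the order was Cd274 (2.99 ± 1.41 CPM per kilobase), Tigit (0.214 ± 0.156), Cd4 (0.18 ± 0.131), Cd8a (0.152 ± 0.113), Pdcd1 (0.145 ± 0.113), Cd3d (0.11 ± 0.104), Cd3g (0.0647 ± 0.0609), Ctla4 (0.0564 ± 0.0867), Foxp3 (0.0373 ± 0.0466) and Cd3e (0.0259 ± 0.0296). Cd274 again led by more than the spread. Cd3e was eighth in normal kidneys and last in tumors, but its neighbours in both orders lay within the SD. Among the 32383 genes with a count, the mean raw count of Ctla4 exceeded that of 43.7% of genes and that of Cd274 exceeded 68.1%, with the other members between them.

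Checkpoint receptor RNA was also set against Cd3e RNA within each library. The pooled Pdcd1 count was 0.784 times the Cd3e count in normal kidneys (69 and 88 counts) and 2.57 times in tumors (59 and 23 counts). The log2 ratio was -0.58 ± 1.05 (SD, n = 10) in normal kidneys and 1.44 ± 1.68 (SD, n = 10) in tumors, and Pdcd1 exceeded Cd3e in 7 tumors and 2 normal kidneys. The difference of 2.02, a 4.06-fold higher ratio, passed a two-sided permutation test (p = 0.00486, adjusted over the 5 ratios p = 0.0243). With 2 added to each count in place of 0.5 it was 1.28 (adjusted p = 0.0251). The ratio of Tigit to Cd3e was higher by 1.44 on the log2 scale, with a pooled ratio of 0.898 in normal kidneys and 1.74 in tumors (p = 0.0397, adjusted p = 0.0993, two-sided permutation test). For Ctla4 to Cd3e the difference was 1.02 (p = 0.232, adjusted p = 0.387, two-sided permutation test). All of these ratios share Cd3e as the denominator, which was at 0 counts in 3 tumors and at most 3 counts in 9 of 10. The ratios are thus not independent of each other or of the fall in Cd3e. Pdcd1 had at most 3 counts in 5 tumors, and its own change did not pass edgeR's test (-0.38, adjusted p = 0.623). Ratios to Cd3d or Cd3g, whose estimates fell less than that of Cd3e, were not tested.

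Ptprc encodes CD45, which nearly all leukocytes carry. Its raw counts ran from 100 to 392 (median 268) in normal kidneys and from 120 to 855 (median 253) in tumors, and its log2 fold change of 0.31 (adjusted p = 0.407) did not pass the test. The summed counts of the 3 CD3 chains ran from 5 to 77 (median 27) in normal kidneys and from 0 to 32 (median 8) in tumors. Per 100 Ptprc counts there were 1.82 to 77 CD3 counts (median 9.9) in normal kidneys and 0 to 5.88 (median 3.63) in tumors. Normal kidney 7 (1.82) was the only normal kidney within the tumor range, since the next lowest, normal kidney 8, had 5.92. Normal kidney 9 (77) stood far above the next, normal kidney 3 (17.1), and it had the fewest Ptprc counts of all libraries. Tumor 7 had the most Ptprc counts (855, or 36.5 CPM) and not 1 read on Cd3d, Cd3e, Cd3g or Cd8a, although 22 reads fell on Cd4, 24 on Trac and 29 on Trdc, which encode the constant regions of the receptor's alpha and delta chains. Tumor 9, with 680 Ptprc counts, had the most CD3 counts of the tumors (32). The Cd274 count per 100 Ptprc counts overlapped widely, with 23.7 to 108 (median 45.8) in normal kidneys and 22.8 to 221 (median 68.7) in tumors.

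**Figure D3:**
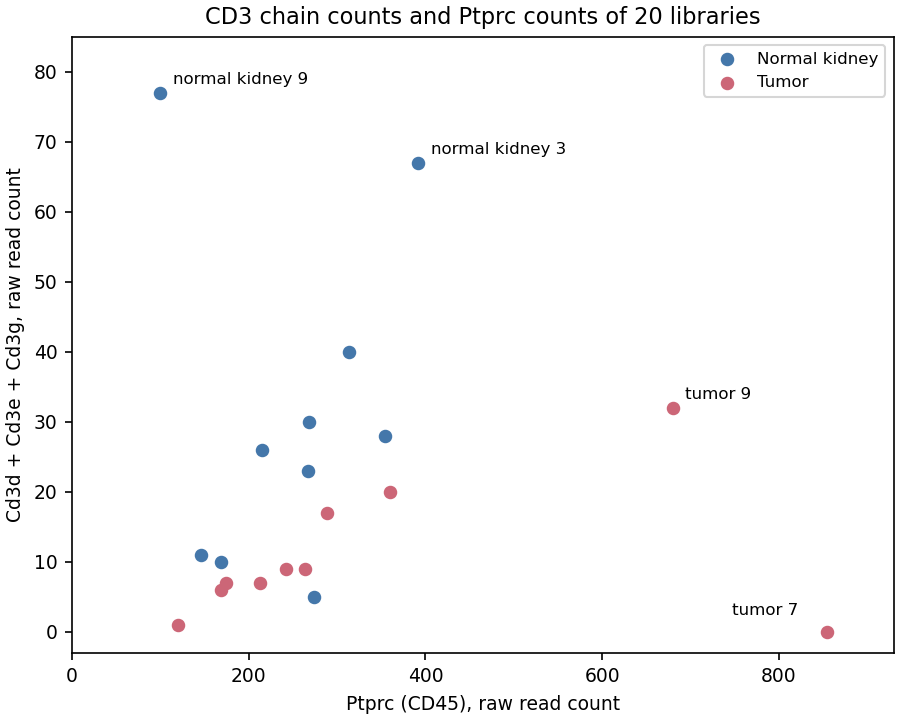
Summed raw counts of Cd3d, Cd3e and Cd3g (vertical axis) against the raw count of Ptprc (horizontal axis), with 1 point per library, normal kidneys in blue and tumors in red. Tumor 7 lies at 855 Ptprc counts and 0 CD3 counts, and normal kidney 9 at 100 Ptprc counts and 77 CD3 counts.

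Within groups, libraries that were high in 1 CD3 chain tended to be high in the others. After the group means were removed, Pearson's r of log2 CPM over the 20 libraries was 0.72 for Cd3d with Cd3e, 0.66 for Cd3d with Cd3g and 0.63 for Cd3e with Cd3g. Cd8a correlated with the CD3 chains at 0.62 to 0.7, while Cd4 correlated with Cd8a at 0.74 in normal kidneys and -0.01 in tumors. Pdcd1 and Ctla4 had an r of 0.6 (0.84 in normal kidneys, 0.28 in tumors). Cd274 ran from -0.17 to -0.08 with the CD3 chains, and Foxp3 stood at -0.56 with Cd3g. These are descriptions over 20 libraries that share depth and tissue makeup, at counts where sampling noise is large. Among 15351 other genes, the 10 whose deviations were most like the mean of the CD3 chains were H2-Eb1 (r = 0.93), H2-Aa and Mettl17 (0.91), Ltb (0.89), Tmem35b (0.88), and Eif4a2, Pomgnt1, Atg16l2, Zgpat and Itgae (0.87). H2-Eb1 and H2-Aa encode chains of class II antigen-presenting molecules, Ltb encodes lymphotoxin beta and Itgae an integrin chain found on tissue-resident T cells and some dendritic cells. Without normal kidney 9 their r lay between 0.84 and 0.91.

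Of 22 other genes of the T cell receptor and its signalling, Trgc1 was not analysed here, and in the fit without the filter 6 of 21 were lower and 2 higher, where 15.2% of all genes were lower and 12.8% higher. Among the lower ones were Cd2 (log2 fold change -2.03), Cd5 (-1.88), Cd6 (-1.62), Trbc2 (-1.56) and Cd247 (-1.41), which encode T cell surface receptors, a receptor beta constant region and the CD3 zeta chain. Of the 20 fits that left out 1 library, the call was lost in 2 for Cd5 (normal kidneys 3 and 9), 6 for Cd6 and 10 for Trbc2. The higher ones were Thy1 (2.28) and Zap70 (1.35). Thy1 marks T cells in the mouse but is also made by fibroblasts and other cells, and ZAP-70 is the kinase that docks to the CD3 chains. With the filter 8 genes were left, of which Thy1 (2.26), Zap70 (1.33) and Lcp2 (1.01) were higher, the last of these not without tumor 7 (0.37, adjusted p = 0.204). The median log2 fold change of the list was -0.86 without the filter and 0.85 with it, against -0.09 and -0.02 for all genes, because the filter removed most of the genes with low counts. Trac, the alpha constant region, had 1.52 ± 1.44 CPM (SD, n = 10) in normal kidneys and 2.72 ± 2.36 CPM (SD, n = 10) in tumors and did not pass the test (0.85, adjusted p = 0.211). The kinase gene Lck was at -0.22 (adjusted p = 0.516).

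Of 14 genes of cytotoxic function and exhaustion, 4 were lower and 1 higher without the filter, at a list median of -1.0, against 15.2% lower and 12.8% higher and a median of -0.09 over all genes. Tox, a factor of exhausted T cells, fell by 2.44 on the log2 scale, Prf1 (perforin) by 1.86, Tbx21 by 1.79 and Entpd1 by 1.02, and the last 2 lost their call in 9 and 2 of the 20 fits that left out 1 library. Gzmb, which encodes granzyme B, rose by 2.20 (adjusted p = 0.0135), from 20 counts summed over normal kidneys to 108 over tumors. Tumor 9 held 45 of these 108 counts. Ifng had 5 counts over all normal kidneys and 2 over all tumors. With the filter, 2 of 4 tested genes were lower, Tox (-2.46) and Entpd1 (-1.04), and 0 were higher. Entpd1, at 42.8 CPM in normal kidneys, is also expressed by endothelial cells. Of the 59 Tox counts in tumors, 20 came from tumor 7, which had no CD3 read but 24 Trac and 29 Trdc reads. Which cells made the Tox RNA was not tested.

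Of 12 genes of naive, memory and resident T cells, 5 were lower and 0 higher without the filter, at a median of -1.26, against the same shares of all genes. Lef1 (-3.49), Satb1 (-2.09) and Tcf7 (-1.94), which encode factors of naive and memory T cells, fell with Bach2 (-1.92) and Itgae (-1.43). Of the counts in tumors, tumor 7, without a CD3 read, held 97 of 187 for Satb1, 67 of 164 for Tcf7 and 0 of 9 for Lef1. The cell source of the Satb1 and Tcf7 reads was not tested. With the filter the 5 lower genes of 8 tested were Satb1 (-2.12), Tcf7 (-1.96), Bach2 (-1.94), Itgae (-1.45) and Cxcr6 (-1.11), where 23.8% of all filtered genes were lower. The call of Cxcr6 was lost in 14 of the 20 fits that left out 1 library, and Satb1 was at -2.94 without tumor 7. Of 12 helper and regulatory T cell genes, 11 had a count and 1 was lower, Gata3 (-5.05 without the filter, -5.08 with it and -6.10 with it but without tumor 7), which the kidney's distal tubule and collecting duct also express. Il17a had no read in any library. Il2ra, which marks regulatory and activated T cells, was at -1.25 (adjusted p = 0.109).

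Several checkpoint genes outside the 10 were higher in tumors. Without the filter 7 of 22 were higher and 1 lower, at a median of 0.42 against -0.09 for all genes, of which 12.8% were higher. Without tumor 7 the median was 0.05 and 5 were higher. Tnfrsf9, which encodes the costimulatory receptor 4-1BB, rose by 5.91 on the log2 scale, from 0.385 ± 0.361 CPM (SD, n = 10) in normal kidneys to 24.3 ± 7.29 CPM (SD, n = 10) in tumors. Tumor 7, without a CD3 read, had 529 Tnfrsf9 counts (22.6 CPM). Which cells made this RNA was not tested. Vsig4 (3.34), Lgals9 (2.40), Pvr (1.94), Cd80 (1.90), Vsir (1.65) and Cd160 (1.29) were also higher. Without tumor 7, Vsig4 (1.39, adjusted p = 0.128) and Cd80 (0.68, adjusted p = 0.311) did not pass the test. Cd160 lost its call in 15 of the 20 fits that left out 1 library, and was at 0.90 without tumor 10. Among these, Pvr encodes the poliovirus receptor, a ligand of TIGIT, and Cd80 a ligand of CTLA4. Btla fell by 1.91 on the log2 scale. With the filter 4 of 13 were higher and 0 lower, where 23.6% of all genes were higher, namely Tnfrsf9 (5.91), Lgals9 (2.39), Pvr (1.93) and Vsir (1.63). The inhibitory receptor genes Lag3 (-0.18, adjusted p = 0.647) and Havcr2 (0.75, adjusted p = 0.118) did not pass the test, and neither did Pdcd1lg2, the gene of the other PD-1 ligand, with 15 counts over normal kidneys and 47 over tumors (1.40, adjusted p = 0.152).

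Interferon-gamma raises PD-L1 in many cells, so genes of its response were examined beside Cd274. With the filter 8 of 15 tested genes were higher and 1 lower, at a median of 0.63, against 23.6% higher, 23.8% lower and a median of -0.02 over all genes. B2m, the light chain of class I molecules, rose by 2.79 on the log2 scale, from 276 to 1900 CPM on average, Gbp2 by 1.74 and Cxcl10 by 1.27. Irf8, a factor of myeloid and B cells, fell by 0.65. Irf1 (0.22, adjusted p = 0.422), Ciita (0.20, adjusted p = 0.763) and Cxcl9 (-0.33, adjusted p = 0.681) did not pass the test. Whether these genes have a part in the rise of Cd274 was not tested.

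**Figure D4:**
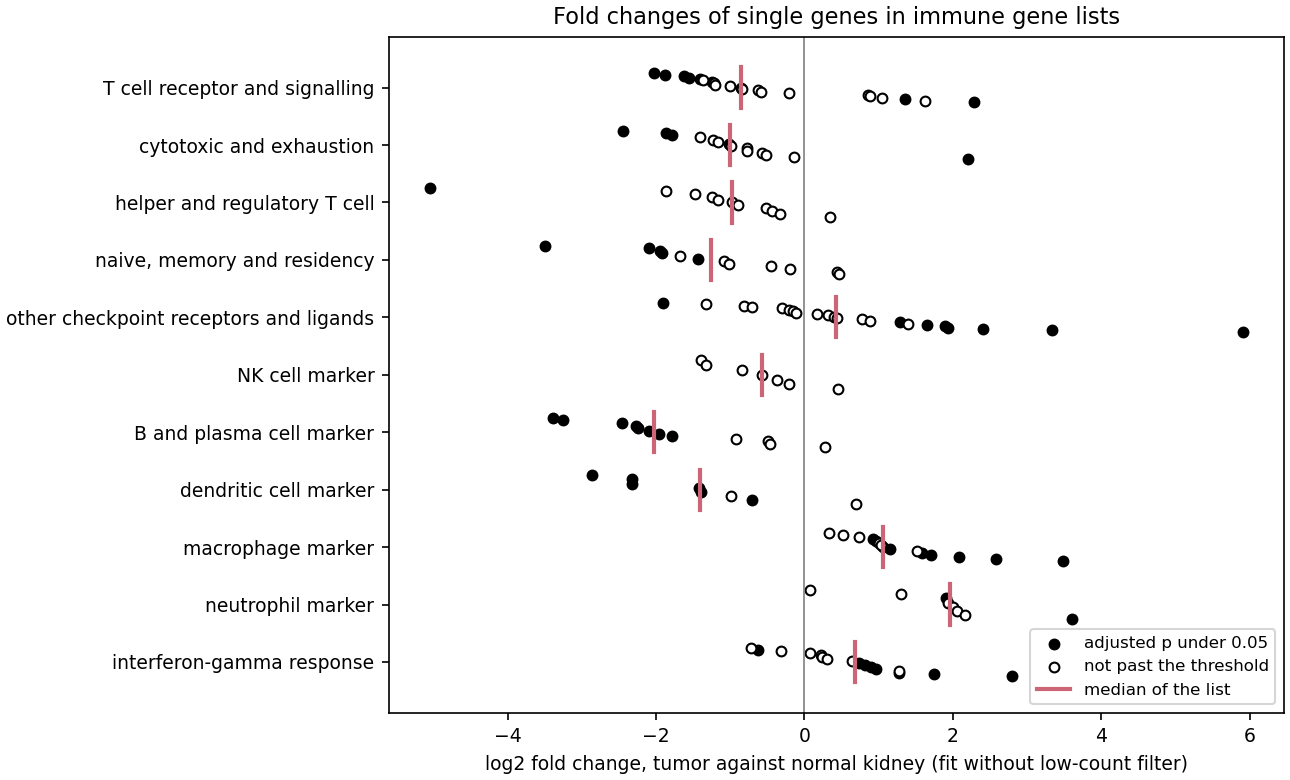
Log2 fold changes, tumor against normal kidney in the fit without the low-count filter, of the single genes of 11 immune gene lists. Filled points passed an adjusted p under 0.05, open points did not, and red bars mark the list medians. The median is lowest for B and plasma cell markers (-2.03) and highest for neutrophil markers (1.96, but -0.03 without tumor 7), and that of the T cell receptor genes lies at -0.86.

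Markers of other cell types also differed between the tissues. Of 12 B and plasma cell markers, 8 were lower without the filter (15.2% of all genes) and 0 higher, and their summed level ran from 23.6 to 1200 CPM in normal kidneys, highest in normal kidney 9, and from 7.75 to 266 CPM in tumors. With the filter the lower ones were Jchain (-3.43), Mzb1 (-3.28), Ighm (-2.32) and Cd79b (-1.99), where Ighm was at -1.77 without normal kidney 9 and at -3.12 without tumor 7. Of 8 dendritic cell markers, 6 were lower without the filter, led by Xcr1 (-2.86), Flt3 (-2.32) and Batf3 (-2.32), and with the filter Flt3 (-2.34), Clec9a (-1.41) and Zbtb46 (-0.73), at a summed 16.7 to 32.8 CPM in normal kidneys and 10.0 to 23.9 CPM in tumors. Of 7 NK cell markers 0 passed edgeR's test in either direction (0 at an unadjusted p under 0.05, and the filter removed all 7), at a summed 0.292 to 3.23 CPM in normal kidneys and 0.268 to 2.29 CPM in tumors. Klra8 was at 0 in every tumor, but had only 2 counts over all normal kidneys. With the filter, macrophage markers were higher in 9 of 15 (23.6% of all genes) and lower in 0, led by Cd68 (3.48), Cd163 (2.55) and Mrc1 (2.05), at a summed 168 to 665 CPM in normal kidneys and 388 to 2580 CPM in tumors. Without tumor 7, 5 were higher, Cd68 was at 3.40, Mrc1 at 1.06 (adjusted p = 0.0155) and Cd163 at 1.26 (adjusted p = 0.0525). Of 8 neutrophil markers Mmp8 (3.59) and Csf3r (1.88) were higher, at a summed 1.98 to 39.3 CPM in normal kidneys and 3.48 to 445 CPM in tumors. Without tumor 7, Mmp8 was at 2.96, Csf3r at 0.72 (adjusted p = 0.0843) and the median of the 5 markers left by the filter at -0.33, against 2.03 with it. Tumor 7, without a CD3 read, held the highest macrophage and neutrophil sums. It also held the highest sum of the T cell receptor and signalling list (72.1 CPM, of which Thy1 made up 47.2 CPM). Among tumors it was highest as well for the B and plasma cell, dendritic cell and cytotoxic lists. Markers of kidney segments were lower in 6 of 8, among them Aqp2 (-12.24), Umod (-11.87), Slc12a1 (-11.26), Slc12a3 (-9.20) and Nphs1 (-5.95), whereas the proximal tubule genes Lrp2 (0.56) and Slc34a1 (-1.15) did not pass the test. Their sum was 4620 to 15100 CPM in normal kidneys and 597 to 6720 CPM in tumors. Normal kidneys 5 (6970 CPM), 7 (4620 CPM) and 8 (9190 CPM) stood below the others, which had 12300 CPM or more. The same libraries had the lowest Cd3g and Cd8a counts of the normal kidneys. The part of these other cells in the values of the 10 genes was not tested.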

How the data were processed

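RNA had been extracted with Trizol from pulverized tissue, and libraries were made by poly A enrichment and sequenced by a company. The deposited values are raw gene counts, which the authors supplied without normalization, and the gene length in the same table has been used only for levels per kilobase. The genome build is mm10 per the submitters' processing notes. The aligner, the counting tool and the use of strand are not given in the sources used here. Samples were grouped by their labels (10 normal kidneys, 10 tumors). The table held 0 lines naming no gene and 0 unused columns of per-sample values.

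Counts were normalized with TMM factors and tested with edgeR 4.0.16 (R 4.3.3, quasi-likelihood, all 20 libraries, no covariate), after its filter with a count minimum of 10 (here 0.513 CPM) or without it. The study used a web pipeline, whose model is not given in the sources used here. P-values were adjusted by Benjamini-Hochberg over all genes tested, and the code was first tested on simulated data. Log2 CPM used a prior count of 2. Intervals are the estimate with a 95% normal margin from its SE. Ratios within a library, with 0.5 added to each count, were compared by two-sided permutation tests with 100000 resamples (scipy 1.17.1, seed 20240). Alternatives were other normalizations, DESeq2 1.42.0, limma-voom (limma 3.58.1), no filter, the replicate block, a pseudocount of 2 and leaving out libraries. Nothing states that samples with the same number come from 1 mouse, and p-values measure the spread between these samples.

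Genes named are the 10 members, Ptprc, up to 3 called genes per list and direction (all where 5 or fewer were called), the 10 genes most like the CD3 chains, kidney markers and the targeted genes. Some genes that this rule covers are not reported here. Genes that did not pass the test and are named with their values, such as Trac, Lck, Lag3 and Irf1, and further called genes were chosen after their values were seen. The members and lists were chosen with earlier results of these data known.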

Additional observations from a re-analysis of the deposited data

Results flagged for a closer look

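Over the 10 genes and the 5 ratios, 30 groups of 10 samples were screened for 1 sample far from the others, and 2 were found, where chance gives about 1 in 20. Foxp3 in tumor 5 was at -0.39 log2 CPM, while the other 9 tumors lay between -2.81 and -1.91. Without tumor 5 the log2 fold change of Foxp3 was -1.70 (adjusted p = 0.0262), against -1.07 with it. The log2 ratio of Cd8a to Cd4 in normal kidney 7 was -1.97, from 5 Cd8a and 21 Cd4 counts, below the other normal kidneys. Without normal kidney 7 the difference of this ratio between tumors and normal kidneys was -0.95 (adjusted p = 0.28, permutation test), and without tumor 7, which had 0 Cd8a counts, it was -0.18 (adjusted p = 0.913, permutation test).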

How the results depend on the processing

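Among the 10 genes, Cd274 (log2 fold change 0.74 to 1.00) and Cd3e (-2.58 to -1.71) stayed past the threshold under every alternative. Cd3d, Ctla4 and Tigit stayed short of it with the same sign. Cd4 passed with the replicate block (-0.78, adjusted p = 0.0464). Pdcd1 ranged from -0.70 to 0.09 when 1 library was left out, with the change of sign without normal kidney 9, and was 0.18 without tumor 7 and normal kidney 9 together. The number of members called lower was 1 (Cd8a), and became 0 with limma-voom, 2 with the replicate block (Cd8a and Cd4), 2 with no filter (Cd3e and Cd3g in place of Cd8a) and 0 to 1 when 1 library was left out.

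The Cd8a to Cd4 difference of -0.72 was -0.18 (adjusted p = 0.913) without tumor 7, -0.95 without normal kidney 7 and -0.23 without tumor 7 and normal kidney 9 together. The Foxp3 to Cd4 difference of -0.04 turned to 0.02 with a pseudocount of 2 and ranged from -0.44 to 0.25 when 1 library was left out. The Tigit to Cd3e difference of 1.44 passed with the replicate block (1.44, adjusted p = 0.0195, exact sign-flip permutation) and ranged from 1.21 to 1.71 without 1 library, where it passed without normal kidney 5, normal kidney 7 or tumor 6. The Pdcd1 to Cd3e difference stayed past the threshold throughout (1.28 to 2.32).

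With no filter the lower calls were 6 of T cell receptor, 4 of cytotoxic, 8 of B cell and 6 of dendritic genes, and the higher ones 7 of other checkpoint and 1 of cytotoxic genes. The checkpoint list had 1 lower call with upper quartile normalization, the replicate block or no filter, and 0 to 1 without 1 library. Without tumor 7 and normal kidney 9 together the helper list had 1 higher and 2 lower calls, the naive list 1 higher (also with the replicate block), the neutrophil list 1 higher (also with DESeq2 and limma-voom) and the interferon-gamma list 2 lower (also with library totals, upper quartile normalization, DESeq2 and the replicate block). Limma-voom called 5 macrophage markers higher, and the replicate block 1 kidney marker higher. Without 1 library the ranges were 0 to 1 higher for dendritic, helper and naive genes, 1 to 3 lower for helper genes, 5 to 11 higher for macrophage genes, 1 to 2 higher for neutrophil genes and 1 to 2 lower for interferon-gamma genes. The cause of these changes was not tested.

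Over all filtered genes 3631 were called higher and 3661 lower, but 2850 and 4554 with library totals and 3000 and 4650 with upper quartile factors, which moved the median of all genes from -0.02 to -0.14. Deviations of same-numbered samples correlated above 0.1 in 9 of 10 pairs (from -0.143 to 0.377), and 8 of 10 tumors correlated best with their own number, a hint that the numbers mark mice. No source used here says so and 1 pair fell short, so the numbers were not taken as pairs, and calls that differ under the block are not settled by this choice. For 7 of the 10 genes the depth, with medians of at most 14 counts in either group, limits what could be detected.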
